A study of Mus musculus with 5 samples.

Results

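Glul, Slc1a2, Oat, Rhbg, Cyp2e1, Cyp1a2, Lgr5, Axin2, Rnf43 and Tbx3 are 10 genes known for expression in the hepatocytes around the central vein of the liver lobule, or for reading out Wnt signalling there. They were taken by gene symbol from whole-liver arrays of 5 inbred mouse strains, as every probe set whose platform annotation names 1 of these genes and no other. This gave 21 probe sets for the 10 genes, out of 45101 probe sets and 18202 genes on the array. One further probe set, shared with the predicted gene Gm13872, was left out. The strains were C57BL/6J, RIIIS/J, BALB/CByJ, NZW/LacJ and FVB/NJ, and each had 1 Affymetrix Mouse430_2 array. Each array held liver RNA pooled from 3 untreated males aged 10 weeks. The labels name no transgene, mutation or agent in any of the 5 groups. Pooling leaves the spread between animals unmeasured, so no test was possible and every difference below compares 5 pools. The number of arrays limits the precision. The series asked how hepatic expression differs between inbred strains.

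Blood enters the liver lobule at the portal tract and leaves it at the central vein, and hepatocytes along this path carry out different work. Endothelial cells of the central vein release Wnt ligands and R-spondin, which keep β-catenin active in the neighbouring hepatocytes. Those hepatocytes take up ammonia that escaped the periportal urea cycle and fix it into glutamine, and they hold much of the liver's cytochrome P450 activity. The arrays measured RNA of the whole liver, so position in the lobule was not seen. In such bulk RNA, fewer cells of a type and less RNA per cell cannot be told apart.

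The pericentral genes include some whose promoters are of different kinds, and the 250 bases before the start of 4 of them are shown for that reason. The windows are RefSeq promoter sequences of build GRCm38.p6, printed 5′ to 3′ on the strand of the gene, and 7 of the 10 genes matched that table. Capitals mark matches, on either strand, to ATCAAAG, a core of the sites bound by the TCF/LEF partners of β-catenin, or to TATAAA, the TATA box. The windows lie at chr2:102706188-102706437 (plus strand, Slc1a2), chr7:140763569-140763818 (plus strand, Cyp2e1), chr9:57683656-57683905 (minus strand, Cyp1a2) and chr1:153899679-153899928 (plus strand, Glul).
Slc1a2: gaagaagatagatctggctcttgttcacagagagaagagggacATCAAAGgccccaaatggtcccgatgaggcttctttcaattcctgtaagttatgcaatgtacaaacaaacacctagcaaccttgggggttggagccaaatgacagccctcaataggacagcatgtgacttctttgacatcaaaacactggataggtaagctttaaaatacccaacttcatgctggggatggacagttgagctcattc
Cyp2e1: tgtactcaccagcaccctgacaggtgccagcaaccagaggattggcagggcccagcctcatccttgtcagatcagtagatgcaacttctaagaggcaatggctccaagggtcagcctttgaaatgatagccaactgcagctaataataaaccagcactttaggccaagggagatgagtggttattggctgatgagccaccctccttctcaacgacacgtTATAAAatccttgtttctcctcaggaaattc
Cyp1a2: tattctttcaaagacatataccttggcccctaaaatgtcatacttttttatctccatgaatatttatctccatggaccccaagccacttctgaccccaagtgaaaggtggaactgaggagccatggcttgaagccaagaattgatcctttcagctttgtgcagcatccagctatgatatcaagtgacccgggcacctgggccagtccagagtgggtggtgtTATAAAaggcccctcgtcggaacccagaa
Glul: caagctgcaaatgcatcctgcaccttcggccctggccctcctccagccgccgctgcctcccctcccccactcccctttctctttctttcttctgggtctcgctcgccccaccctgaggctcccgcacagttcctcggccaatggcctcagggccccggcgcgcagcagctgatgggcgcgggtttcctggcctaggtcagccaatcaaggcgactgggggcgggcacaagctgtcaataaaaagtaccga
The Slc1a2 window held ATCAAAG at -207 to -201 from the start and 1 CG pair. Both P450 windows held a TATA box, at -31 to -26 for Cyp2e1 and at -29 to -24 for Cyp1a2, with 2 and 3 CG pairs. The Glul window held 15 CG pairs and none of the letters searched. Over all 32851 windows of this length, 3.21% held ATCAAAG, 12.4% held TATAAA and the median number of CG pairs was 6. Another motif, GCGTG, the core bound by the aryl hydrocarbon receptor, stood in 28.2% of all windows. It was found in 1 of the 2 Rnf43 windows and not in that of Cyp1a2. The Axin2 and Oat windows held 24 and 14 CG pairs and no match. These matches describe letters in a window and show no binding.

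Intensities are the deposited values on a linear scale. A probe set counted as detected above an intensity of 8.48. This floor is the 95th percentile of 84 chemosensory receptor probe sets (olfactory, taste and vomeronasal), genes not known for a role in liver. Of the 21 probe sets, 15 were above this floor on all 5 arrays, 1 was above it only in RIIIS/J and 5 were at or under it on every array. Each of the 10 genes was detected on every array through its most intense probe set, which gives the gene's values below. Levels are compared between strains for 1 gene at a time, since probe sets of different genes differ in their response. A level here is the reading of a probe set. Sequence differences between the strains under the probes were not examined, and their part in the readings was not tested. Hepatocyte markers were detected on every array (9 of 9 measured), with a summed intensity of 383665 in RIIIS/J and 314287 to 345735 in the other strains.

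The FVB/NJ and RIIIS/J arrays carried marker RNA of other tissues, and the counts, medians and ranges that these arrays move most are given with and without them. In RIIIS/J the 8 measured markers of exocrine pancreas were all at least 2-fold above every other strain, with a summed intensity of 70499.9 against 723 to 1304, and 5 or 6 of them were at or under the detection floor in each other strain. In FVB/NJ all 6 detected B cell markers were at least 2-fold above every other strain, with a summed intensity of 17281 against 111 to 242. The erythroid markers summed to 6074 in FVB/NJ against 1305 to 3766, and 4 of the 5 detected were at least 2-fold above every other strain. The part of these other tissues in the values of FVB/NJ and RIIIS/J was not tested. Exactly equal values on 2 or more arrays occurred in 29.1% of all probe sets. The share was 36.4% where all 5 values exceeded the floor, beside 3 of the 15 such probe sets of the 10 genes.

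Among the strains, C57BL/6J had the higher levels of most of these genes. Glul, Slc1a2, Lgr5, Tbx3, Rnf43 and Cyp1a2 were highest in C57BL/6J, which is 6 of 10 genes, beside 19.5% of all 11874 detected genes. Oat, Rhbg and Cyp2e1 were highest in RIIIS/J and Axin2 in BALB/CByJ, each with C57BL/6J second. The lowest strain was NZW/LacJ for Glul, Slc1a2, Oat, Cyp2e1 and Rnf43 and FVB/NJ for Lgr5, Axin2 and Tbx3. These are 8 of 10 genes lowest in 1 of those 2 strains, beside 43.0% of all detected genes. Rhbg and Cyp1a2 were lowest in BALB/CByJ. The ratio of the highest to the lowest strain was at least 2-fold for 7 of the 10 genes, beside 30.5% of all detected genes, and the genes that missed it were Glul, Cyp2e1 and Cyp1a2. Without FVB/NJ it held for 4 of 10 (Slc1a2, Oat, Rhbg and Rnf43), beside 20.4%, and without RIIIS/J for 7, beside 23.6%. Without both arrays it held for the same 4 genes, beside 13.0%. The strains left at the bottom without FVB/NJ were NZW/LacJ for 7 genes and BALB/CByJ for 2, and without RIIIS/J the 8 genes were again lowest in FVB/NJ or NZW/LacJ.

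**Figure D1:**
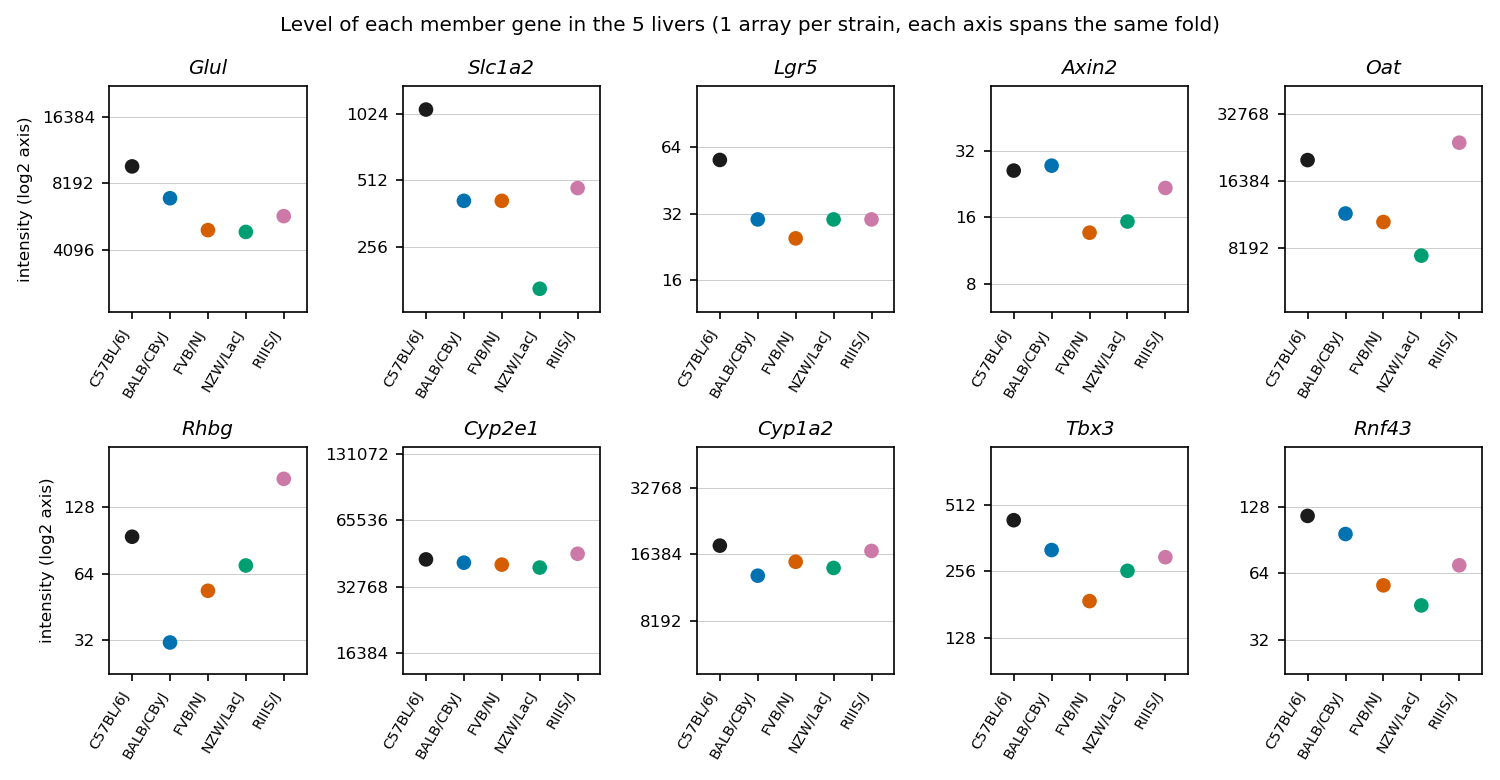
Intensity of the 10 genes on the 5 arrays, on a log2 axis, 1 panel a gene and 1 point a strain, for the most intense probe set of each gene. No error bars are drawn, since each strain had 1 array. Slc1a2 spans 6.46-fold and Rhbg 5.49-fold between the highest and the lowest strain, while Cyp2e1 spans 1.15-fold.

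The plot of the levels by strain shows each gene on its own panel, so that the order of the strains can be read for each. As a rough scale for the steps in those orders, the deviations given by 2 probe sets of a gene were compared over 4561 genes. A deviation is how far 1 strain lies above the other 4, as its log2 level less their mean. The median difference between probe sets was 0.22 log2 and the 95th percentile was 1.02. Of the 40 steps between neighbouring strains in the orders of the 10 genes, 19 were under that median. A deviation is not the same measure as a step between 2 strains, and both probe sets were read on the same arrays. This yardstick thus carries no difference between arrays or animals, and cannot tell which steps would repeat.

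Lgr5 encodes a receptor for R-spondins, which strengthen Wnt signalling at the cell surface. It read 56.1 in C57BL/6J, 30.2 in each of BALB/CByJ, NZW/LacJ and RIIIS/J, and 24.8 in FVB/NJ. The C57BL/6J pool stood alone and the other 4 lay close together, with 3 exactly tied. C57BL/6J was 1.86-fold above the next strain, and the whole range was 2.26-fold, or 1.86-fold without FVB/NJ.

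Rnf43 encodes a membrane ubiquitin ligase that removes Frizzled receptors and is opposed by R-spondin. Its levels were 116 in C57BL/6J, 96.3 in BALB/CByJ, 69.5 in RIIIS/J, 56.4 in FVB/NJ and 45.8 in NZW/LacJ. They formed an even descent in which all 4 steps were above 0.22 log2, and the range was 2.54-fold. Its order of strains was that of the most intense Glul probe set. The other Glul probe set had FVB/NJ, not NZW/LacJ, at the bottom.

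Axin2 encodes a scaffold of the complex that degrades β-catenin and is itself switched on by Wnt signalling. BALB/CByJ read 27.4, C57BL/6J 26.0, RIIIS/J 21.7, NZW/LacJ 15.3 and FVB/NJ 13.6. The top pair differed by 0.07 log2 and the bottom pair by 0.17, both under the yardstick, so the values fell into an upper and a lower group with RIIIS/J nearer the upper one. The range was 2.01-fold, or 1.79-fold without FVB/NJ, and these levels were close to the floor. Axin2 was the 1 gene of the 10 that was on every array under a stricter floor of 28.0, set at the 99th percentile of those receptors.

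Tbx3 encodes a T-box transcription factor known as a β-catenin target in liver. It read 435 in C57BL/6J, 319 in BALB/CByJ, 296 in RIIIS/J, 257 in NZW/LacJ and 187 in FVB/NJ, a range of 2.32-fold, or 1.69-fold without FVB/NJ. C57BL/6J was set off at the top by 0.45 log2 and FVB/NJ at the bottom by 0.46, and the 3 strains between lay within smaller steps.

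Glul encodes glutamine synthetase, which joins ammonia to glutamate and is the classic marker of the last hepatocytes before the central vein. It read 9787 in C57BL/6J, 7027 in BALB/CByJ, 5831 in RIIIS/J, 5040.4 in FVB/NJ and 4947 in NZW/LacJ. C57BL/6J was 1.39-fold above the next strain, while FVB/NJ and NZW/LacJ differed by 0.03 log2. The range was 1.98-fold.

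Slc1a2 encodes a glutamate transporter of the cell surface. Its most intense probe set read 1071 in C57BL/6J, 473 in RIIIS/J, 414 in each of BALB/CByJ and FVB/NJ, and 166 in NZW/LacJ. Both ends of the order stood off: C57BL/6J was 2.27-fold above the next strain and NZW/LacJ was 2.50-fold below the next. The range of 6.46-fold was wider than that of 94.4% of all detected genes.

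Oat encodes the mitochondrial ornithine aminotransferase, which links ornithine to glutamate. RIIIS/J read 24434, C57BL/6J 20383, BALB/CByJ 11687, FVB/NJ 10697 and NZW/LacJ 7536. RIIIS/J and C57BL/6J formed an upper pair, separated from BALB/CByJ by 0.80 log2. The whole range was 3.24-fold, or 2.70-fold without RIIIS/J.

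Rhbg encodes an ammonium transporter of the Rh glycoprotein family. It was 172 in RIIIS/J, 94.1 in C57BL/6J, 69.8 in NZW/LacJ, 53.6 in FVB/NJ and 31.3 in BALB/CByJ. All 4 steps were above the yardstick, from 0.38 to 0.87 log2, and RIIIS/J was 1.83-fold above the next strain. The range was 5.49-fold, or 3.01-fold without RIIIS/J. Rhbg was the 1 gene of the 10 in which BALB/CByJ deviated by more than 1 log2, at -1.49.

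Cyp2e1, a P450 that oxidises ethanol and acetaminophen, was nearly level: 46189 in RIIIS/J, 43562 in C57BL/6J, 42091 in BALB/CByJ, 41254 in FVB/NJ and 40011 in NZW/LacJ. Cyp1a2, a P450 that metabolises caffeine and responds to the aryl hydrocarbon receptor, read 17930.5 in C57BL/6J, 16969 in RIIIS/J, 15156 in FVB/NJ, 14213 in NZW/LacJ and 13111 in BALB/CByJ. Their ranges were 1.15-fold and 1.37-fold, and all 4 steps of each were under the yardstick. Both genes were among the most intense on the array, at percentiles 99.9 and 99.2 of all genes by mean intensity. Ranges were narrower among intense genes: the median was 1.38-fold for the 258 detected genes averaging 10000 or more and 1.60-fold for the 9991 averaging under 1000. Oat, also in the upper class, had a range of 3.24-fold, where 10.9% of the genes reached 2-fold.

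**Figure D2:**
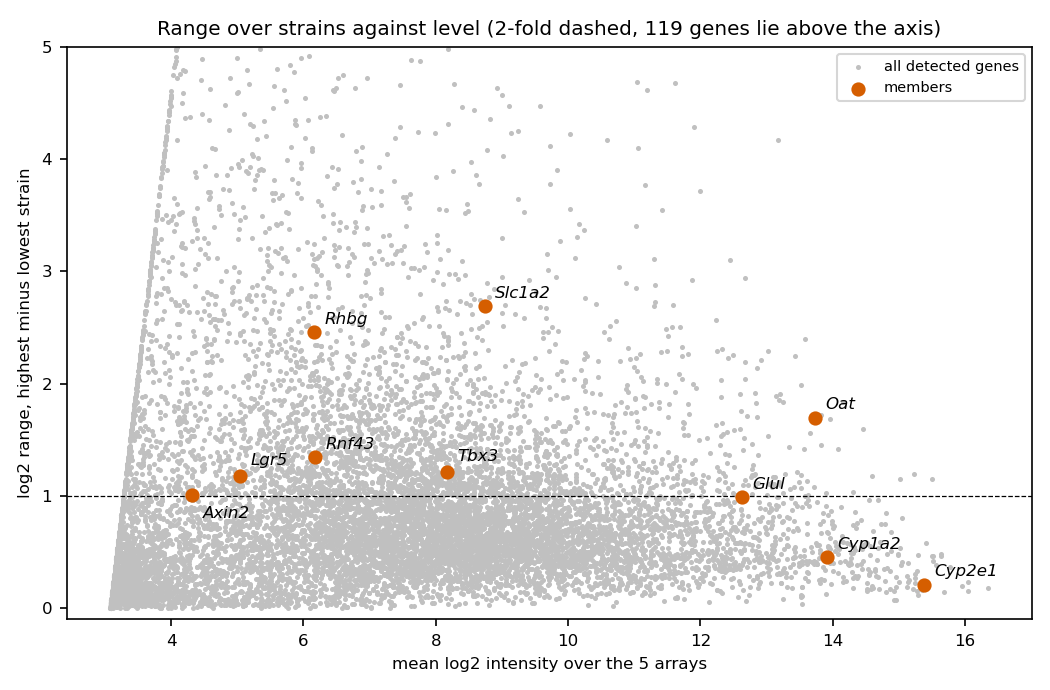
Ratio of the highest to the lowest strain (log2, vertical axis) against mean log2 intensity (horizontal axis) for all 11874 detected genes, in grey, with the 10 pericentral and Wnt genes marked. The vertical axis ends at 5, above which 119 genes lie. Cyp2e1 and Cyp1a2 sit low at the right of the plot, while Oat at a like intensity sits higher.

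In the plot of range against intensity, the 10 genes are spread over most of the vertical extent of the bulk of genes. By range they lay between percentile 14.1 (Cyp2e1) and percentile 94.4 (Slc1a2) of the detected genes.

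Only Slc1a2 was apart in a strain, meaning at least 2-fold from each of the other 4 in 1 direction. This was 1 of 10 genes, beside 12.0% of all detected genes apart in any strain. Of all detected genes, 690 were apart as higher in FVB/NJ, and 115 as higher and 205 as lower in RIIIS/J. The share without FVB/NJ and RIIIS/J was not computed. Slc1a2 was apart as higher in C57BL/6J (0.488% of detected genes) and as lower in NZW/LacJ (0.724%). Its other probe sets did not repeat that pattern. The next most intense probe set read 227 in C57BL/6J, 216 in RIIIS/J, 173 in NZW/LacJ, 123 in FVB/NJ and 110 in BALB/CByJ, so C57BL/6J and RIIIS/J were nearly equal and NZW/LacJ was in the middle. The one after it was 66.0 in BALB/CByJ, 59.5 in C57BL/6J, 40.0 in NZW/LacJ, 38.6 in FVB/NJ and 13.8 in RIIIS/J, with the low value in another strain. In all 3, C57BL/6J was above the mean of the other 4, by 1.65, 0.59 and 0.79 log2. One more was detected only in RIIIS/J, at 12.2. With the mean of its probe sets in place of the most intense one, the deviation of Slc1a2 in C57BL/6J was 0.56 and the gene was apart in no strain. That mean takes in all 5 probe sets, also the one detected only in RIIIS/J and one under the floor on every array. Such probe sets narrow the differences of the mean. Which transcript parts these probe sets match was not analysed here.

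The 2 probe sets of Glul ran side by side. The less intense one read 3351 in C57BL/6J, 2225 in BALB/CByJ, 1930.2 in RIIIS/J, 1826 in NZW/LacJ and 1703 in FVB/NJ, a range of 1.97-fold against 1.98-fold for the other. C57BL/6J deviated by 0.81 and 0.79 log2 in them. Tbx3 kept C57BL/6J at the top in its next probe set, of the _x_at type, with 271 against 141 in RIIIS/J, 128 in BALB/CByJ, 60.9 in FVB/NJ and 45.3 in NZW/LacJ. That range was 5.99-fold, wider than for the most intense probe set, and NZW/LacJ took the lowest place. Probe sets of this type can match related sequences. The weakest one above the floor had a range of 1.54-fold with the highest value, 19.9, in RIIIS/J. Oat, Rhbg, Cyp2e1, Cyp1a2 and Rnf43 had no second probe set, and those of Lgr5 and Axin2 were under the floor, so their strain orders rest on 1 probe set each.

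**Figure D3:**
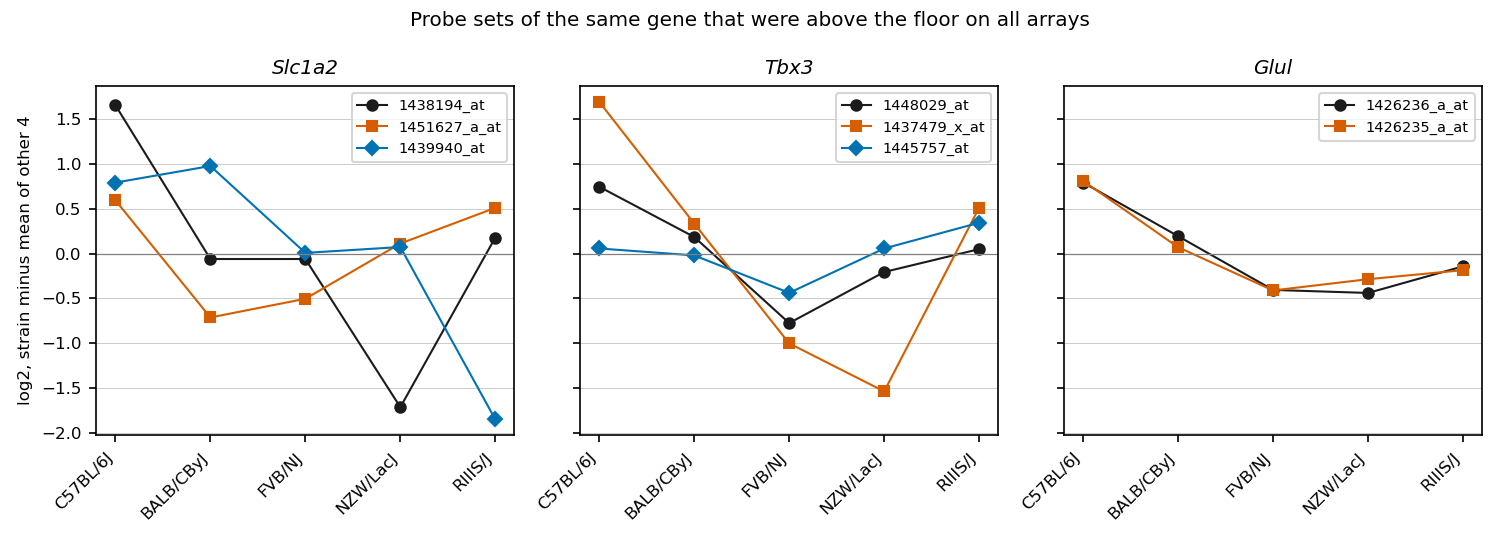
Deviation of each strain from the mean of the other 4 (log2) in every probe set above the floor for the genes with more than 1 such probe set, 1 panel a gene and 1 line a probe set. The Glul lines nearly coincide, the Tbx3 lines differ in spread, and the Slc1a2 lines cross, with NZW/LacJ at -1.71 in 1 of them and near 0 in the others.

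The plot of probe sets shows where a strain order depends on the probe set read. The value of C57BL/6J was positive in every Glul and Slc1a2 line, whereas the NZW/LacJ value of Slc1a2 was low in 1 line of 3.

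Taken by strain, all 10 genes were above the mean of the other 4 strains in C57BL/6J, beside 50.1% of all detected genes, with a median deviation of 0.74 log2. The deviations in C57BL/6J ran from 0.04 for Cyp2e1 and 0.28 for Cyp1a2 to 0.96 for Lgr5 and 1.65 for Slc1a2. In RIIIS/J 7 of 10 were above, beside 43.3%, with a median of 0.15, led by Rhbg at 1.58 and Oat at 1.05. That median was 0.06 without FVB/NJ and 0.01 without NZW/LacJ, with 5 of 10 above in each, and 0.26 without C57BL/6J, with 10 of 10 above. In BALB/CByJ 4 of 10 were above (Glul, Axin2, Tbx3 and Rnf43), beside 50.6%, with a median of -0.04. In FVB/NJ none of the 10 was above, beside 45.2%, with a median of -0.44. In NZW/LacJ again none was above, beside 45.6%, with a median of -0.32, and Slc1a2 and Oat were furthest below at -1.71 and -1.07. The NZW/LacJ median was -0.18 without C57BL/6J, with 2 of 10 above, and -0.50 without FVB/NJ, with none above. The median over all detected genes lay between -0.02 and 0.00 in every strain. The 5 deviations of a gene sum to 0, so a high value in 1 strain lowers the others.

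**Figure D4:**
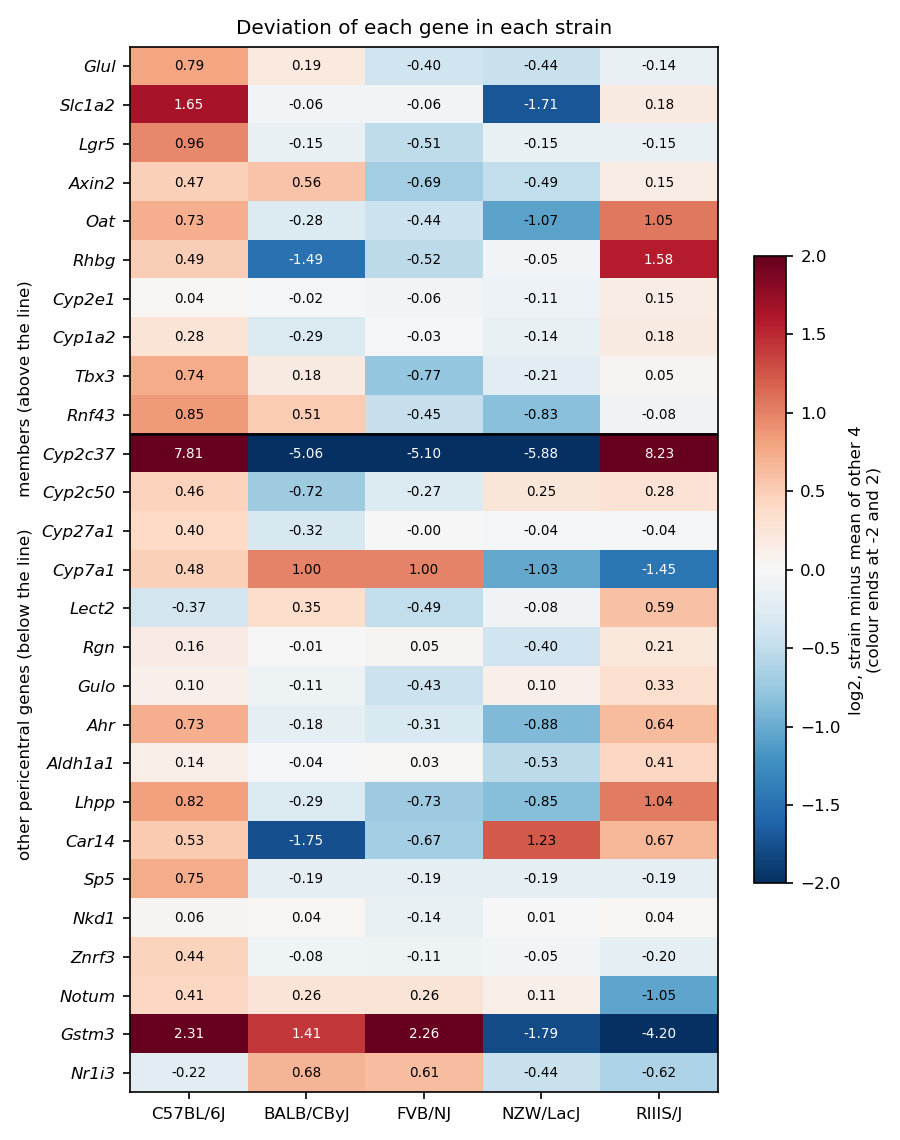
Deviation of each strain from the mean of the other 4 (log2, printed values and a colour scale that ends at -2 and 2) with the 5 strains in columns. Rows above the line are the 10 genes and rows below it the other detected pericentral genes. The C57BL/6J column is positive in all 10 rows above the line, and the FVB/NJ and NZW/LacJ columns are negative there.

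The map of deviations also shows which genes set the RIIIS/J column apart: Rhbg and Oat, with the other 8 between -0.15 and 0.18. Without the RIIIS/J array, C57BL/6J was highest in 9 of the 10 genes, all but Axin2, and its median was 0.85. Oat, Rhbg and Cyp2e1 had C57BL/6J second to RIIIS/J, so removing that array passed their first place to C57BL/6J. Without both FVB/NJ and RIIIS/J, C57BL/6J was again highest in 9, and the median was 0.77. A strain can only gain first places as other arrays are left out. The share of all detected genes highest in C57BL/6J was not computed for these settings. All 10 genes stayed above the mean of the remaining strains in C57BL/6J whichever 1 array was left out, with medians from 0.60 to 0.85. Without C57BL/6J the FVB/NJ median was -0.26, with 2 of 10 above, and the BALB/CByJ median was 0.24 in place of -0.04.

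Between pairs of strains, the number of genes at least 2-fold apart was largest for C57BL/6J against FVB/NJ, with 4 of 10 (Slc1a2, Lgr5, Tbx3 and Rnf43) beside 10.8% of detected genes and a median log2 ratio of 0.95. C57BL/6J against NZW/LacJ gave 3 (Slc1a2, Oat and Rnf43) beside 7.20%, with a median of 0.83. C57BL/6J against BALB/CByJ gave 2 (Slc1a2 and Rhbg) beside 4.86%, and C57BL/6J against RIIIS/J gave Slc1a2 alone beside 9.06%. These 4 pairs share the C57BL/6J array. BALB/CByJ differed at least 2-fold from FVB/NJ in Axin2 alone, beside 11.0%. It differed from NZW/LacJ in Slc1a2, Rhbg and Rnf43, 3 genes beside 8.28%, and from RIIIS/J in Oat and Rhbg, 2 genes beside 10.7%. FVB/NJ and NZW/LacJ were 2-fold apart in Slc1a2 alone, beside 14.4%, and their median log2 ratio was 0.04. FVB/NJ and RIIIS/J were apart in Oat and Rhbg, 2 genes beside 16.5%, and NZW/LacJ and RIIIS/J in those and Slc1a2, 3 genes beside 7.23%. Rhbg and Oat thus made up the 2 genes in which RIIIS/J was above each of BALB/CByJ and FVB/NJ by at least 2-fold. The RIIIS/J array also held the pancreas markers, and the part of that tissue in the Rhbg and Oat values was not tested.

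The other pericentral hepatocyte genes listed beside these 10 had medians of the same sign as the 10 genes in each strain. The periportal genes and the hepatocyte markers had these signs too, so they are not particular to pericentral genes. Of 20 other pericentral genes listed, 17 were detected. In C57BL/6J 15 of the 17 were above the mean of the other 4 strains, beside 50.1% of all detected genes. Their median there was 0.44 log2, and 0.41 without FVB/NJ and RIIIS/J. It was 0.21 in RIIIS/J, -0.08 in BALB/CByJ, -0.14 in FVB/NJ and -0.19 in NZW/LacJ. A range of at least 2-fold was seen in 8 of the 17, beside 30.5% of all detected genes. Cyp2c37, a P450 of the arachidonic acid pathway, was the most divided, at 47003 in RIIIS/J and 37234 in C57BL/6J, against 29.5 in BALB/CByJ, 28.9 in FVB/NJ and 18.7 in NZW/LacJ. Gstm3, a glutathione transferase, was 71.2 in RIIIS/J against 271 to 2629 in the other strains, on a probe set that may read related genes. Car14, a membrane carbonic anhydrase, read 825 in NZW/LacJ, 605 in RIIIS/J, 559 in C57BL/6J, 288 in FVB/NJ and 158 in BALB/CByJ. Cyp7a1, the rate-limiting enzyme of bile acid synthesis, went another way, at 6814 in FVB/NJ, 6805 in BALB/CByJ and 5113 in C57BL/6J against 2217 in NZW/LacJ and 1750 in RIIIS/J.

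Lhpp, Ahr and Sp5 were picked from the same list after their values were seen. Lhpp, a phosphatase gene, read 1351 in RIIIS/J and 1191 in C57BL/6J, against 474 to 647 elsewhere, and so had the upper pair seen in Oat. Ahr, the aryl hydrocarbon receptor gene, was 1348 in C57BL/6J and 1285 in RIIIS/J, against 554 to 816. Sp5, a transcription factor gene induced by β-catenin, was detected only in C57BL/6J, at 14.2, at least 1.68-fold above the other strains.

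**Figure D5:**
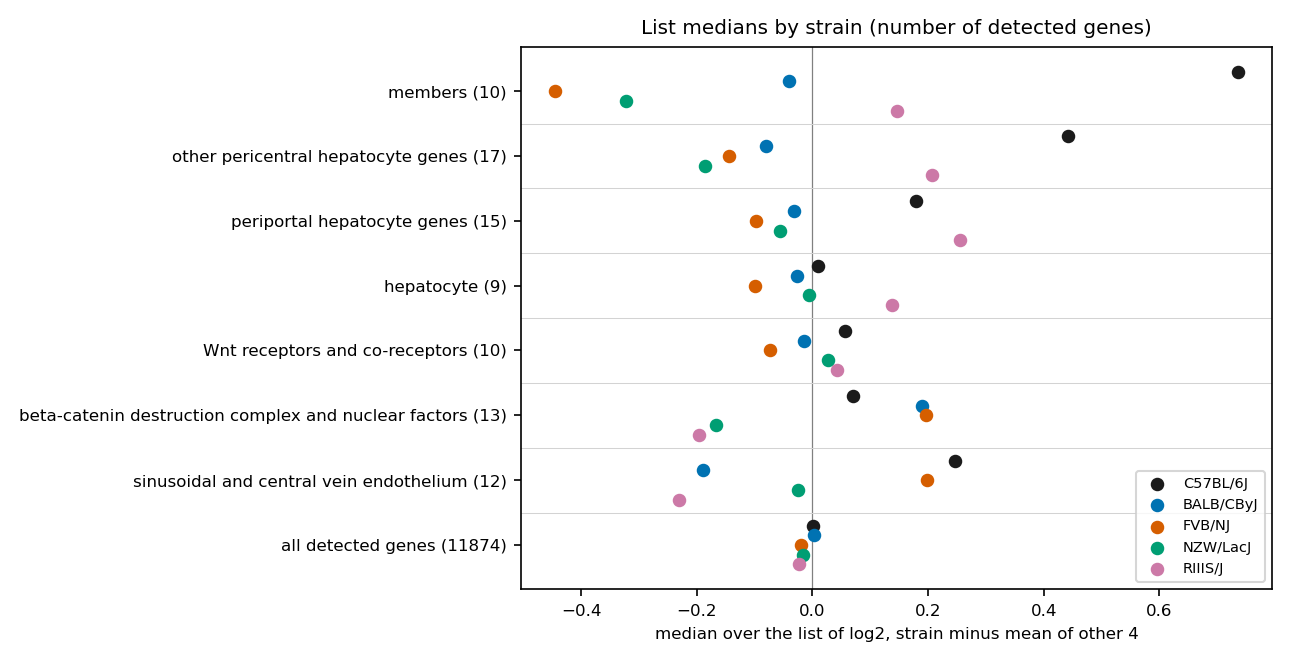
Median deviation (log2) of each strain from the mean of the other 4 for the 10 genes, 6 of the lists beside them and all detected genes, with 1 row a list and 1 marker a strain. The 10 genes have their C57BL/6J marker at 0.74 and the other pericentral genes at 0.44, against 0.18 for periportal genes and 0.01 for hepatocyte markers.

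The plot of list medians sets the 10 genes beside the other lists. Among 18 periportal genes, known for urea synthesis and gluconeogenesis, 15 were detected. Of these, 11 were above the mean of the others in C57BL/6J, beside 50.1% of all detected genes, with a median of 0.18. Their medians elsewhere were 0.25 in RIIIS/J, -0.03 in BALB/CByJ, -0.06 in NZW/LacJ and -0.10 in FVB/NJ. The C57BL/6J median was -0.01 without FVB/NJ and 0.07 without RIIIS/J. Of the 15 periportal genes, 8 had a range of at least 2-fold, beside 30.5% of all detected genes. Hsd17b13, a lipid droplet protein gene, was 195 in FVB/NJ against 8338 to 10015 in the other strains. Etnppl, a phosphoethanolamine-degrading enzyme gene, ran from 1913 in NZW/LacJ to 9336 in RIIIS/J, and the aldehyde dehydrogenase gene Aldh1b1 from 314 in BALB/CByJ to 1423 in NZW/LacJ. Ass1 was lowest in C57BL/6J, at 53.7, and highest in RIIIS/J, at 223. These are readings of a weak probe set. Cps1 and Asl, also of the urea cycle, read 22426 to 27588 and 5162 to 9900. Whether the Ass1 probe set reads the main transcript of the gene was not tested. The 9 hepatocyte markers had a median of 0.01 in C57BL/6J and 0.14 in RIIIS/J. A difference between the lists was not tested.

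The ligands and receptors of the Wnt pathway had list medians nearer to 0 in C57BL/6J. Of 7 listed ligands and R-spondins, 3 were detected, with medians between -0.04 and 0.05 in the 5 strains. Wnt2, a ligand made by liver endothelium, ranged from 29.7 to 34.7. Wnt9b, the other ligand known from the central vein, was under the floor on every array at 4.65 to 5.75. Rspo3, the R-spondin of the central vein, was 57.1 in C57BL/6J, 43.9 in BALB/CByJ and NZW/LacJ, 43.4 in RIIIS/J and 36.7 in FVB/NJ. Its range was 1.56-fold. Its top and bottom strains were those of Lgr5, but also those of genes under the floor on every array, such as Wnt11 and Dkk1. A link between Rspo3 and Lgr5 was not tested.

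The 10 Wnt receptors and co-receptors had medians between -0.07 and 0.06. Lgr4, a second R-spondin receptor gene, ran from 427 in FVB/NJ to 1154 in NZW/LacJ, a range of 2.70-fold with C57BL/6J between at 807.5. The Frizzled gene Fzd8 read 248 in C57BL/6J, 177 in NZW/LacJ, 150 in BALB/CByJ and FVB/NJ and 101 in RIIIS/J. Fzd6 was highest in NZW/LacJ at 52.8 and lowest in FVB/NJ at 22.6.

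Of 16 genes for the β-catenin complex and its nuclear partners, 13 were detected, with medians of 0.20 in FVB/NJ, 0.19 in BALB/CByJ, 0.07 in C57BL/6J, -0.17 in NZW/LacJ and -0.20 in RIIIS/J. Ctnnb1, the β-catenin gene, was 4974 in BALB/CByJ, 4690 in C57BL/6J and FVB/NJ, 3960 in RIIIS/J and 3869 in NZW/LacJ. Gsk3b, a kinase of the complex, was 264 in NZW/LacJ against 479 to 569 in the other strains. Dvl1, a transducer below the receptors, ran from 1419 in NZW/LacJ to 3267 in FVB/NJ. Lef1, a DNA-binding partner of β-catenin that lymphocytes also express, was detected only in FVB/NJ, at 41.3, at least 4.87-fold above the others, on the array with the B cell markers. Their part in that value was not tested.

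Few of the 10 genes listed as secreted Wnt inhibitors were detected: Sfrp1 on every array at 16.1 to 16.4, and Sfrp5 on 2 arrays at 8.58 and 8.59. Their medians were between -0.02 and 0.01. Notum, counted with the other pericentral genes and not here, was detected on every array, from 80.6 in RIIIS/J to 182 in C57BL/6J. Targets of the aryl hydrocarbon receptor other than Cyp1a2 were also sparse, with 3 of 7 listed genes detected and medians from -0.21 in BALB/CByJ to 0.33 in FVB/NJ. Cyp1a1, the sister gene of Cyp1a2 that is known for its low level in untreated liver, was under the floor at 7.49 to 7.80. Nqo1 was 24.3 in C57BL/6J, with 16.8 to 18.8 elsewhere, and Tiparp ran from 37.2 in BALB/CByJ to 59.8 in FVB/NJ. Cyp1b1 was detected only in FVB/NJ, at 15.0.

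Genes that varied across the 5 arrays like Glul were ranked by Pearson correlation of log2 values, over 3156 genes with a range of at least 2-fold and detected on every array. With 5 points this measure has little precision, and 9 genes (0.285%) were above 0.95. The 5 nearest were Ralgapa2 and Vwa8 (r = 0.99 each), F2r (0.98), Nedd1 (0.97) and Amdhd1 (0.96). Vwa8 read 1006 in C57BL/6J, 572 in BALB/CByJ, 509 in RIIIS/J, 414 in FVB/NJ and 412 in NZW/LacJ. This was the strain order of the most intense Glul probe set. Amdhd1, an enzyme of histidine breakdown, read 5983 in C57BL/6J, 3730 in BALB/CByJ, 3231 in RIIIS/J, 1795 in FVB/NJ and 1695 in NZW/LacJ. Within the 10 genes the correlation with Glul was 0.95 for Rnf43, 0.90 for Tbx3 and Lgr5, 0.84 for Slc1a2 and 0.83 for Axin2. It was 0.57 for Oat, 0.45 for Cyp1a2, 0.39 for Cyp2e1 and 0.05 for Rhbg. All of these share the same 5 arrays, so that the value of 1 array enters each of them, and they are given as a description.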

How the data were processed

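Liver RNA of 5 inbred strains, 1 Affymetrix Mouse430_2 array per strain, was analysed. The deposited values are intensities on a linear scale made by the authors. The programs were GCOS and GCRMA, as credited in the submitters' processing notes. Program versions and settings and array batches are not given in the sources used here. GCRMA corrects background and normalizes between arrays, so differences of low values depend on that step.

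Symbols came from the platform annotation: 34970 probe sets had 1 gene, 920 several and 9211 none, and 34766 of the first matched the RefSeq gene table. Intensities were taken to log2. A gene was read from its most intense probe set on average. Values under the floor (intensity 8.48, log2 3.08) were raised to it, so that a fold against them is a lower bound. Deviations, counts at 2-fold and the 10 pairs of strains were computed for all 18202 genes, and 11874 genes detected on at least 1 array served as background. With 1 array per strain no test was run.

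The 10 genes and the 15 lists beside them were chosen with earlier results of these data known. Named list members were those with the largest or smallest deviation or widest range, at most 4 a list, with Wnt2, Wnt9b, Rspo3 and Ctnnb1 in any case. Lhpp, Ahr, Sp5, Lect2, Nr1i3, Nkd1, Notum, Cyp1a1, Wnt11 and Dkk1 and the endothelial markers were named outside this rule, after their values were seen. The 5 genes most like Glul were also named. Further lists served as checks of other cell types. Their median deviations in the order C57BL/6J, RIIIS/J, BALB/CByJ, NZW/LacJ and FVB/NJ were 0.19, -0.66, -0.68, 0.14 and 0.70 for Kupffer cells and macrophages. They were 0.10, -0.33, 0.03, -0.45 and 0.37 for stellate cells and fibroblasts, and 0.09, 0.00, -0.04, 0.04 and -0.15 for cholangiocytes.

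The alternatives tried were no floor, a floor at the 99th percentile, removal of shared-suffix probe sets, averaging over probe sets, quantile normalisation, median scaling, the median of the other strains, a 1.5-fold threshold and leaving out each array. The steps were tested on simulated data. The software was Python 3.11.15 with matplotlib 3.10.9, scipy 1.17.1, pandas 2.3.3 and numpy 2.4.6.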

Additional observations from a re-analysis of the deposited data

How the results depend on the processing

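No paired analysis was possible because there was only 1 pool and array for each strain. Over the alternatives, 105 of 116 values of the summary results and 192 of 226 values of single genes moved by no more than 0.22 log2 or, for counts, by no more than 1.5 times. No value further than 0.22 log2 from 0 changed sign. The number of genes apart in 1 strain was 1. It was 0 with the mean of probe sets, 3 at a 1.5-fold threshold (Slc1a2, Lgr5 and Rhbg), and 1 to 3 with 1 array left out. Without C57BL/6J the 3 were Slc1a2, Oat and Rhbg, and without FVB/NJ there were 2, Slc1a2 and Rhbg. With FVB/NJ and RIIIS/J both left out, a setting chosen after seeing the data, there were 3 (Slc1a2, Rhbg and Rnf43) and the NZW/LacJ median was -0.64. The BALB/CByJ median, -0.04 with all arrays, ran from -0.13 to 0.24 with 1 array left out, so its sign changed, and was highest without C57BL/6J. The count of genes with a range of at least 2-fold, whose alternatives were also chosen after seeing the data, was 7. It was 3 with the mean of probe sets, 4 to 7 with 1 array left out, lowest without FVB/NJ, and 4 without FVB/NJ and RIIIS/J. The mean of probe sets takes in those under the floor on every array, which Slc1a2, Lgr5, Axin2 and Tbx3 have. These narrow its differences. The count of genes at least 2-fold apart, summed over the 10 pairs of strains, was 22, and 44 at 1.5-fold. For this count and that of genes apart in 1 strain, the share of all detected genes was not computed under the alternatives. Among single genes, the deviation of Rhbg in C57BL/6J was 0.49, and 0.12 without BALB/CByJ or 0.94 without RIIIS/J. That of Oat was 0.73, and 1.06 without RIIIS/J. Without C57BL/6J the log2 range of Lgr5 was 0.28 and that of Glul 0.51. Axin2 was not detected at the stricter floor, and Glul was lost when probe sets with shared suffixes were removed, since both of its probe sets have one. One pool per strain gives no spread between animals, and RNA of other tissues on 2 arrays could not be taken out. Axin2 and the detected Wnt ligands lie near the floor.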

Other observations

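Markers of sinusoidal and central vein endothelium, the cells known as the source of Wnt2, Wnt9b and Rspo3, were read beside the genes above. All 12 listed markers were detected on at least 1 array. Their median deviations were 0.25 log2 in C57BL/6J, 0.20 in FVB/NJ, -0.03 in NZW/LacJ, -0.19 in BALB/CByJ and -0.23 in RIIIS/J, and 9, 7, 2, 3 and 1 of the 12 were above the mean of the other 4 strains. Individual markers were chosen here after their values were seen. Stab2, a scavenger receptor of sinusoidal endothelium, was 575 in C57BL/6J, with 340 to 508 elsewhere, and Oit3 was 238 against 123 to 175. Vwf, a marker of larger vessels, was 113 in FVB/NJ against 44.4 to 56.6, and Kit was 25.3 in FVB/NJ against 9.29 to 13.0, on the array with the B cell and erythroid markers. Their part in these values was not tested.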
